A study of Drosophila melanogaster with 12 samples.

Results

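Larval tracheae were compared with whole female flies in 8 of the 12 RNA-seq libraries of the series, 4 of each group, chosen by their sample titles, with all genes of the annotation considered. The larval libraries held tracheae dissected by hand from w1118 larvae in the middle of the third instar, before wandering, of mixed sex, with 3 animals pooled in each library. The whole fly libraries each held 3 entire w1118 females, and the age given for the females of the study is 5 to 7 days. The other 4 libraries, from dissected adult tracheae of w1118 females, are given only where a larval value is set beside them. Every library was made by full-length cDNA synthesis and PCR amplification of the cDNA. Tissue, stage, sex and the share of the animal taken all differ between the 2 groups, so their parts in a difference cannot be told apart. Nothing in the labels says whether the 4 libraries of a group came from separate cultures, so the p-values measure the spread between these libraries.

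The tracheal system of the fly is a branching tube of a single epithelial layer that carries air to all tissues. On its inner side the epithelium secretes a chitinous cuticle, which is shed and rebuilt at each larval moult, and its cells are sealed by septate junctions. The tubes form in the embryo under transcription factors such as Trachealess and Ventral veins lacking, and branch towards the FGF ligand Branchless through its receptor Breathless.

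Library depth was similar in the groups, with 5017919 to 8169848 gene reads in larval tracheae, against 5397732 to 9880844 in whole flies. A count of 3 reads, the limit that a count of 0 allows, corresponded to 0.367 to 0.598 counts per 1e6 gene reads (CPM) in larval tracheae and 0.304 to 0.556 CPM in whole flies. The reads carry no molecular identifiers, so such limits and intervals cover counting error only. Intronic reads took 7.81 to 8.85% of gene reads in larval tracheae, against 4.86 to 5.83% in whole flies. The 20 most abundant genes took 30.7 to 38.8% of gene reads in larval tracheae, against 14.5 to 15.3% in whole flies. Pairs of larval libraries had Pearson correlations of 0.871 to 0.905 in log2 CPM across genes, and pairs of whole fly libraries 0.859 to 0.892. Whole fly replicate 1 was far above the other whole flies in Nplp4, CG15353, CG13044 and Cpr47Ec, 4 of the 10 genes given below as most abundant in larval tracheae, and larval replicates 2 and 4 stood apart from 1 and 3 in several cuticle genes, as given with those genes. The deposited RPKM values (reads per kilobase of exon, scaled for depth) are scaled to each library's total, whereas the fold changes come from counts with TMM scaling, and equal RPKM in the 2 groups corresponded to a log2 fold change of 0.57.

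The labels were checked with genes known to mark each source. trh, the transcription factor that starts tracheal fate, had 6.54, 3.90, 3.30 and 5.36 RPKM in larval tracheae and 0 RPKM in each of the 4 whole fly libraries. The 14 reads that whole flies gave over the trh locus (3L, 366524 to 392633, minus strand) held no exon read. btl, the FGF receptor of tracheal cells, had 53.6, 45.0, 37.3 and 47.7 RPKM in larval tracheae, against 0, 0.459, 0.175 and 0.788 RPKM in whole flies (a log2 fold change of 7.58 ± 0.67, SE, adjusted p = 8.40e-06, edgeR). Cp15, a chorion protein of the eggshell, had 0.283, 0.270, 0.387 and 0.951 RPKM in larval tracheae and 4435, 3759, 2314 and 2839 RPKM in whole flies. The rhodopsin gene ninaE reached at most 1.84 RPKM in larval tracheae and at least 504 RPKM in whole flies, and Act88F, the flight muscle actin, gave 1 read in larval tracheae and 5.998 to 16.7 RPKM in whole flies. None of these genes overlapped between the groups, and each was high in the source it is known from. The dosage compensation RNA roX1, which is made in males, had 386, 1306, 251 and 981 reads in the larval libraries and 0, 3, 5 and 0 reads in the whole fly libraries (a log2 fold change of 8.97 ± 0.78, adjusted p = 7.04e-06). roX2 had 0, 271, 0 and 71 reads in larval tracheae and 8, 0, 65 and 0 reads in whole flies, and was not called (adjusted p = 0.259).

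**Figure D1:**
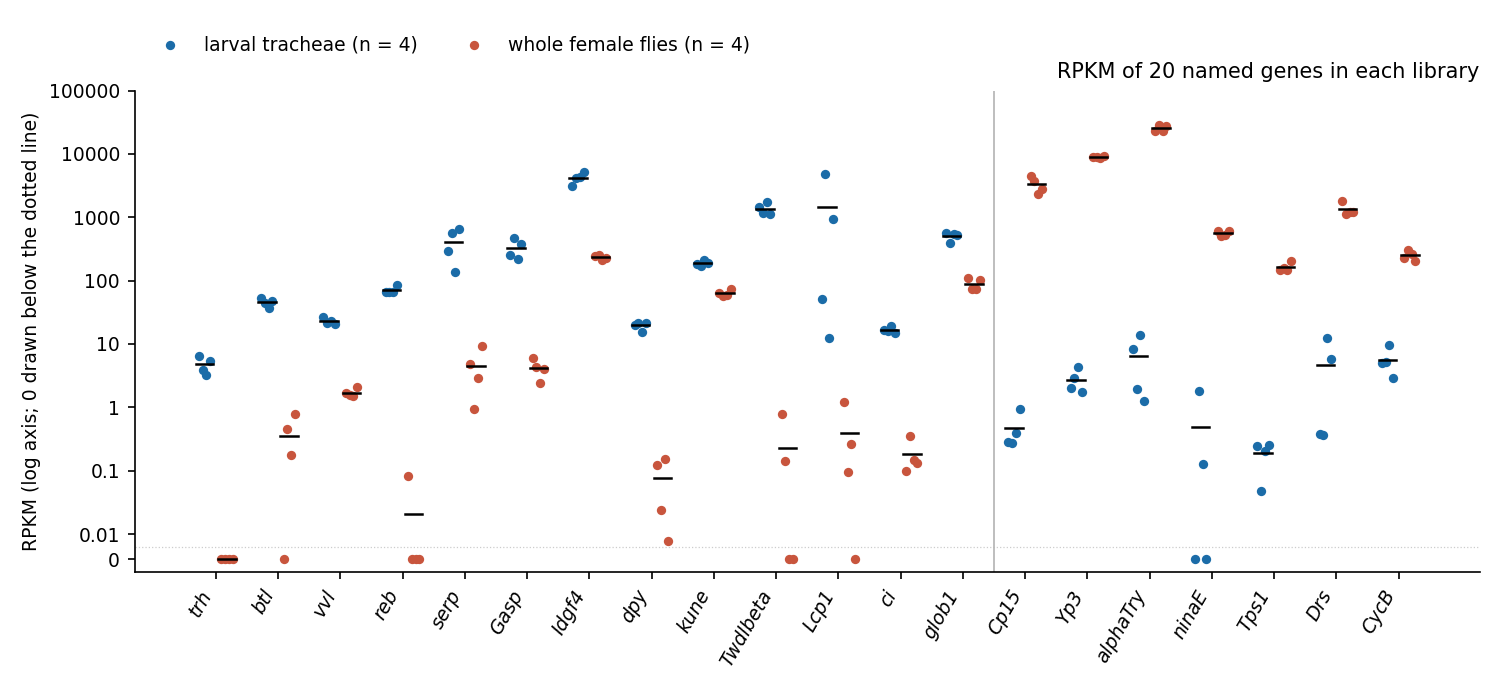
RPKM on a log axis of 20 named genes in each library, with larval tracheae in blue and whole female flies in red. Each point is 1 library and each black line the mean of 4, and values of 0 are drawn below the dotted line. Genes left of the grey line were higher in larval tracheae and genes right of it were lower, and in all 20 the points of the groups do not overlap.

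Of 9944 genes tested, 5011 (50.4%) passed the thresholds for a call, which were an adjusted p below 0.05 together with more than a 1.5-fold difference. The libraries of the groups did not overlap in 4902 genes (49.3%). In larval tracheae 2276 genes were higher (22.9%) and 2735 were lower (27.5%) than in whole flies. Among the called genes, 974 were more than 10-fold higher and 1140 more than 10-fold lower. In 197 of the higher genes whole flies gave no read, and in 444 of the lower genes larval tracheae gave none. The median log2 fold change of all tested genes was -0.24. Bulk libraries were used, so fewer cells of a type and less RNA per cell cannot be told apart.

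The split between higher and lower genes moved with transcript length. Among genes with up to 500 bases of exon, the median log2 fold change was -1.45, and among genes with more than 5000 bases it was 1.25. With an offset for exon length in the fit, the medians of all length classes lay between 0.42 and 0.66, the median of all genes was 0.56, and 3407 genes were called higher and 1467 lower, so that 69.9% of calls were higher instead of 45.4%. On the RPKM scale with limma the median of all genes was -0.87, and 28.5% of calls were higher. The source of the length trend was not tested. Families of short genes are therefore given below on both scales wherever the scale changes their direction.

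**Figure D2:**
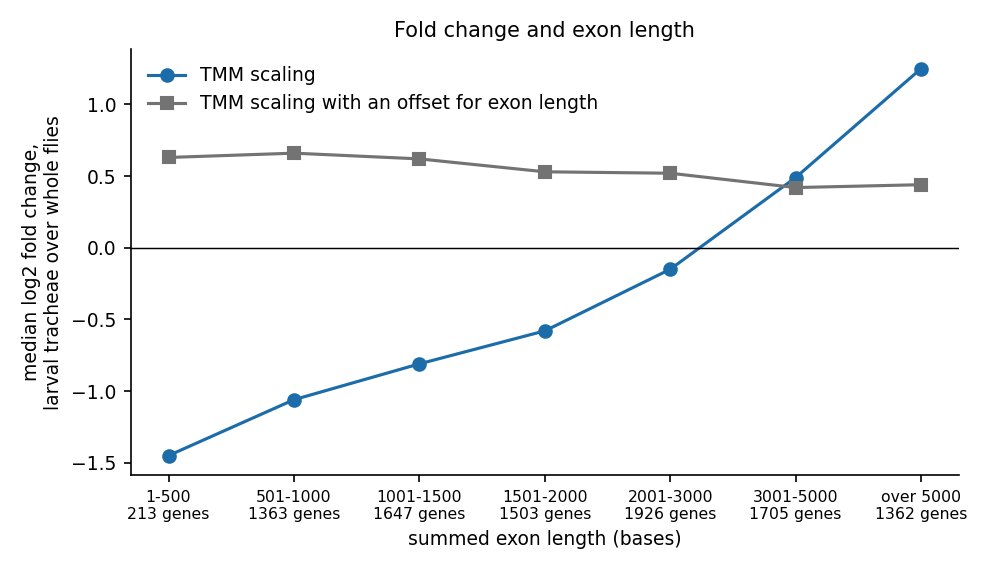
Median log2 fold change of larval tracheae over whole flies (vertical axis) in 7 classes of summed exon length in bases (horizontal axis, with the number of genes in each). Blue circles are counts with TMM scaling, which climb with length to 1.25, and grey squares the same with an offset for exon length, which stay between 0.42 and 0.66.

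A few genes took a large part of the larval libraries. The 10 genes with the highest mean RPKM in larval tracheae among those called higher were Nplp4, CG15353, CG13067, CG13678, CG13044, Cpr47Ec, eEF1alpha1, CG11370, caix and CAH1. Together they held 32.6, 22.9, 27.9 and 24.5% of gene reads in larval tracheae, against 1.03, 0.718, 0.732 and 0.996% in whole flies. Nplp4, named as a neuropeptide-like precursor, had 214500, 134900, 158600 and 164400 RPKM in larval tracheae, against 190, 10.2, 16.1 and 14.6 RPKM in whole flies (a log2 fold change of 12.07 ± 1.26, adjusted p = 2.48e-05). Its neighbour CG15353 had 120600, 122500, 105000 and 122800 RPKM in larval tracheae and 108, 27.2, 21.9 and 29.96 RPKM in whole flies (11.87 ± 0.69, adjusted p = 6.59e-07). These 2 genes lie next to each other on opposite strands of chromosome arm 2L, CG15353 at 2006763 to 2007193 and Nplp4 at 2008414 to 2009072 (BDGP6). In both genes whole fly replicate 1 was the highest of the whole flies, yet far below every larval library.

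CG13067 had 124600, 40410, 129300 and 32820 RPKM in larval tracheae, against 73.6, 26.02, 70.1 and 37.5 RPKM in whole flies (11.21 ± 0.75, adjusted p = 1.39e-06). Larval replicates 1 and 3 were the higher pair there, and likewise for CG13068, which had 2001, 477, 2116 and 191 RPKM in larval tracheae and a single read in the 4 whole fly libraries together. The ratio of CG13068 over the pooled reads was 20200, with a 95% counting interval of 3630 to 799000. CG13067 and CG13068 lie on arm 3L at 16271282 to 16271918 and 16269392 to 16269911, and CG13044, with 24280 to 34400 RPKM in larval tracheae and 0.884 to 37.7 RPKM in whole flies, lies on the same arm at 16302490 to 16303178. CG13678 (3L, 8222141 to 8222953) had 20900 to 38480 RPKM in larval tracheae and 0.993 to 32.4 RPKM in whole flies, and CG13679 (3L, 8202792 to 8203345) had 523, 1196, 742 and 724 RPKM in larval tracheae and 1 read in whole flies. The files give these genes no name beyond their identifiers. Among the abundant genes of known function, the carbonic anhydrase gene CAH1 had 9308, 4732, 3199 and 7633 RPKM in larval tracheae and 84.0 to 127 RPKM in whole flies (6.40 ± 0.40, adjusted p = 8.56e-07). caix, named CAH9 in the reference annotation, had 8302, 5063, 4248 and 8384 RPKM in larval tracheae and 19.4 to 61.3 RPKM in whole flies (8.0 ± 0.44, adjusted p = 4.89e-07). eEF1alpha1, a translation elongation factor, had 8131 to 11760 RPKM in larval tracheae and 2834 to 3967 RPKM in whole flies (2.09 ± 0.21, adjusted p = 1.72e-05).

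Transcription factors and signals that set up the tracheal tube were higher in larval tracheae. Of 11 tested tracheal transcription factors, 10 were called higher and none lower, and the median log2 fold change was 5.0. vvl, a POU-domain factor, had 26.9, 21.7, 22.8 and 20.6 RPKM in larval tracheae and 1.51 to 2.12 RPKM in whole flies (4.32 ± 0.26, adjusted p = 7.16e-07). grh, an epithelial factor, had 4.397 to 7.92 RPKM in larval tracheae and at most 0.303 RPKM in whole flies. esg, a zinc-finger factor of progenitor cells, had 15.8, 5.88, 15.3 and 3.82 RPKM in larval tracheae, again with replicates 1 and 3 above 2 and 4, and at most 0.405 RPKM in whole flies (6.47 ± 1.08, adjusted p = 6.19e-04). All 5 tested genes of the FGF branching pathway were called higher, with a median of 5.86. Among them stumps, the adaptor downstream of the FGF receptor, had 25.5, 20.3, 14.6 and 18.01 RPKM in larval tracheae and 0 to 0.329 RPKM in whole flies (7.12 ± 0.56, adjusted p = 3.56e-06).

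Most genes that make and modify chitin were higher in larval tracheae. Of 9 tested genes of chitin synthesis, 7 were called higher and none lower (median log2 fold change 5.75), or 6 higher and 1 lower on the RPKM scale. Gfat1, which feeds the pathway with amino sugars, had 56.4 to 87.1 RPKM in larval tracheae and 1.07 to 4.03 RPKM in whole flies (5.75 ± 0.42, adjusted p = 2.32e-06). The chitin synthase gene kkv had 5.64, 8.38, 4.79 and 8.09 RPKM in larval tracheae and 0.650, 0.0710, 0 and 0 RPKM in whole flies (5.55 ± 1.01, adjusted p = 0.00107). reb, which is needed for chitin deposition, had 65.0, 65.8, 67.0 and 83.9 RPKM in larval tracheae and 1 read in all whole fly libraries, a ratio of 6760 over the pooled reads (95% counting interval 1210 to 267000). knk, which organizes and protects new chitin, had 48.5 to 58.8 RPKM in larval tracheae and 0.139 to 0.757 RPKM in whole flies (7.29 ± 0.40, adjusted p = 5.07e-07). None of these larval values came near those of whole flies.

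Of 6 tested chitin deacetylases, 5 were higher in larval tracheae and none lower, or 1 lower without larval replicate 3 and on the RPKM scale (median 7.57, or 7.27 with 1 member that whole flies lacked set at its bound). serp and verm, which modify the luminal chitin of tracheal tubes, moved together across larval libraries. serp had 295, 560, 139 and 653 RPKM in larval tracheae and 4.88, 0.956, 2.90 and 9.20 RPKM in whole flies (7.06 ± 0.79, adjusted p = 3.98e-05). verm had 306, 544, 126 and 589 RPKM in larval tracheae and 1.02 to 5.05 RPKM in whole flies (7.64 ± 0.72, adjusted p = 1.26e-05). Cda4 had 141 to 238 RPKM in larval tracheae and 0.479 to 3.24 RPKM in whole flies, without that pattern over the replicates. The 4 tested members of the obstructor family, secreted chitin-binding proteins, were all higher, with Gasp at 255, 465, 221 and 379 RPKM in larval tracheae and 2.42 to 6.06 RPKM in whole flies (6.88 ± 0.40, adjusted p = 6.15e-07). obst-A had 162 to 410 RPKM in larval tracheae and 0.292 to 3.09 RPKM in whole flies (8.20 ± 0.63, adjusted p = 3.32e-06), and obst-E 149 to 274 RPKM in larval tracheae and 7.92 to 30.1 RPKM in whole flies (4.30 ± 0.43, adjusted p = 1.84e-05).

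Chitinases, which break chitin down, were divided, with 5 of 9 tested members higher and 3 lower in larval tracheae. Cht7 had 22.1 to 49.6 RPKM in larval tracheae and 1 read in whole flies. Cht10 had 28.9, 66.5, 23.3 and 81.7 RPKM in larval tracheae and at most 0.176 RPKM in whole flies (9.47 ± 0.89, adjusted p = 1.19e-05). Cht5 had 4.94, 55.6, 7.89 and 60.5 RPKM in larval tracheae and 0 to 2.53 RPKM in whole flies (4.88 ± 1.07, adjusted p = 0.00340). In Cht10 and Cht5 larval replicates 2 and 4 were the higher pair, as they were in serp and verm. The imaginal disc growth factors are secreted relatives of chitinases that lack the enzyme activity, and 4 of 6 were higher and none lower, or 1 lower without larval replicate 3 and on the RPKM scale. Idgf4 was the most abundant, with 3081, 4221, 4246 and 5138 RPKM in larval tracheae and 216 to 252 RPKM in whole flies (4.72 ± 0.21, adjusted p = 1.62e-07). Idgf6 had 332 to 616 RPKM in larval tracheae and 182 to 260 RPKM in whole flies (1.65 ± 0.23, adjusted p = 2.01e-04).

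Most structural cuticle protein families were higher in larval tracheae. The Cpr, Lcp, Ccp84A, Tweedle and Osiris families were taken as 1 class, although Osiris genes are not all known as cuticle proteins. This class took 2.42, 2.58, 1.85 and 1.73% of gene reads in larval tracheae. In whole flies it took 0.0585, 0.0569, 0.0670 and 0.0679%. The difference of means was 2.08 percentage points (exact permutation test over libraries, two-sided, p = 0.0286, the smallest that 4 against 4 libraries allow, and 0.0317 after Benjamini-Hochberg adjustment over 10 classes). All 10 classes were chosen with earlier results of these data known. Of the 70 Cpr genes, which carry the chitin-binding Rebers and Riddiford motif, 45 passed the filter of 10 reads in 2 libraries, and of these 29 were called higher and 3 lower (1 lower with the offset, or without larval replicate 1, whole fly replicate 3 or whole fly replicate 4). Their median log2 fold change was 7.03, or 6.54 with 19 members that gave no read in 1 group set at their bound. The family's summed RPKM was 26900, 17700, 20300 and 16400 in larval tracheae, against 142 to 212 in whole flies. Cpr47Ec led it with 20170, 7896, 16930 and 8272 RPKM in larval tracheae and 8.22, 0.544, 0.374 and 0.989 RPKM in whole flies (13.03 ± 1.11, adjusted p = 6.30e-06). Cpr47Eb had 564 to 1123 RPKM in larval tracheae and 1.36, 0, 0 and 0 RPKM in whole flies, and Cpr49Ag had 1007, 2770, 513 and 3565 RPKM in larval tracheae and 0.156 to 15.3 RPKM in whole flies.

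All 11 tested Lcp genes, which encode larval cuticle proteins, were called higher in larval tracheae, as were all 7 Ccp84A genes. The medians were 8.28 for Lcp and 9.68 for Ccp84A, or 6.04 and 7.58 with members that whole flies lacked set at their bound. Lcp65Ab2 (3L, 6146674 to 6147089, plus strand) had 793, 2297, 285 and 1183 RPKM in larval tracheae and no read in whole flies, which made it at least 6980-fold higher (floor of 3 reads over the whole fly group). Its tandem copy Lcp65Ab1 had 7 reads in larval tracheae and 3 in whole flies, so the split of reads between the 2 copies is uncertain. Ccp84Ab had 111, 631, 367 and 177 RPKM and Ccp84Aa 68.7, 358, 142 and 131 RPKM in larval tracheae, and both had no read in whole flies, at least 3640-fold and 1880-fold higher. They are neighbours on arm 3R (6701968 to 6702877 and 6704084 to 6704903). Cpr65Av, with 507, 332, 89.1 and 281 RPKM in larval tracheae and no read in whole flies, was at least 2810-fold higher.

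Several Lcp genes differed widely among the larval libraries. Lcp1 had 50.9, 4868, 12.5 and 927 RPKM in larval tracheae and 1.22, 0.0950, 0.262 and 0 RPKM in whole flies (12.50 ± 2.15, adjusted p = 7.40e-04). Lcp4 had 162, 2399, 46.3 and 716 RPKM in larval tracheae and at most 1.17 RPKM in whole flies (11.95 ± 1.60, adjusted p = 1.31e-04). Lcp2, whose sequence is close to that of Lcp1 so that reads may be split between them, had 3.14, 623, 5.16 and 206 RPKM in larval tracheae and 2 reads in whole flies. In these 3 genes, which lie in a cluster on arm 2R between 8430115 and 8438495, replicates 2 and 4 were above 1 and 3 and every larval library was above every whole fly library. The same order held for Cpr100A, with 170, 1234, 7.81 and 321 RPKM in larval tracheae and 2 reads in whole flies, a ratio of 13400 over the pooled reads (95% counting interval 3710 to 111000). CG32249, an unnamed gene, had 128, 9174, 18.6 and 4039 RPKM in larval tracheae and 1.95, 0, 0 and 0.387 RPKM in whole flies (13.21 ± 2.24, adjusted p = 6.78e-04). CG8736 had 60.4, 446, 32.3 and 198 RPKM in larval tracheae and no read in whole flies, at least 2100-fold higher. The age of each library's larvae within the instar is not stated in the sources used here, so its part in this spread was not tested.

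The Tweedle and Osiris families, both of cuticle-forming cells, did not follow as groups. Of 26 Tweedle genes 5 passed the filter, with 2 higher and 2 lower in larval tracheae. No lower call was left without whole fly replicate 4, 1 was left without any 1 of the larval replicates or without whole fly replicate 2, and the groups overlapped in both of these genes. Twdlbeta had 1478, 1156, 1737 and 1129 RPKM in larval tracheae and 0.776, 0.141, 0 and 0 RPKM in whole flies (13.10 ± 0.62, adjusted p = 1.95e-07). TwdlX had 107, 79.0, 0.875 and 105 RPKM in larval tracheae and at most 0.667 RPKM in whole flies, with larval replicate 3 close to the whole flies. Of 9 tested Osiris genes 1 was higher and 3 were lower. Osi6 had no read in larval tracheae and 4.32, 8.17, 17.9 and 18.3 RPKM in whole flies, that is, at least 134-fold lower in larval tracheae. Tanning and pigment genes were divided, with 6 of 16 higher and 3 lower. yellow-c had 109 to 172 RPKM in larval tracheae and 5.29 to 9.43 RPKM in whole flies (4.77 ± 0.28, adjusted p = 6.84e-07), whereas Hn, the phenylalanine hydroxylase that supplies tyrosine, had 2.20, 4.74, 1.70 and 4.57 RPKM in larval tracheae and 39.4 to 49.1 RPKM in whole flies (-3.12 ± 0.37, adjusted p = 5.75e-05). The gene CG8483, of no given name, had 140 to 324 RPKM in larval tracheae and 1 read in whole flies.

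**Figure D3:**
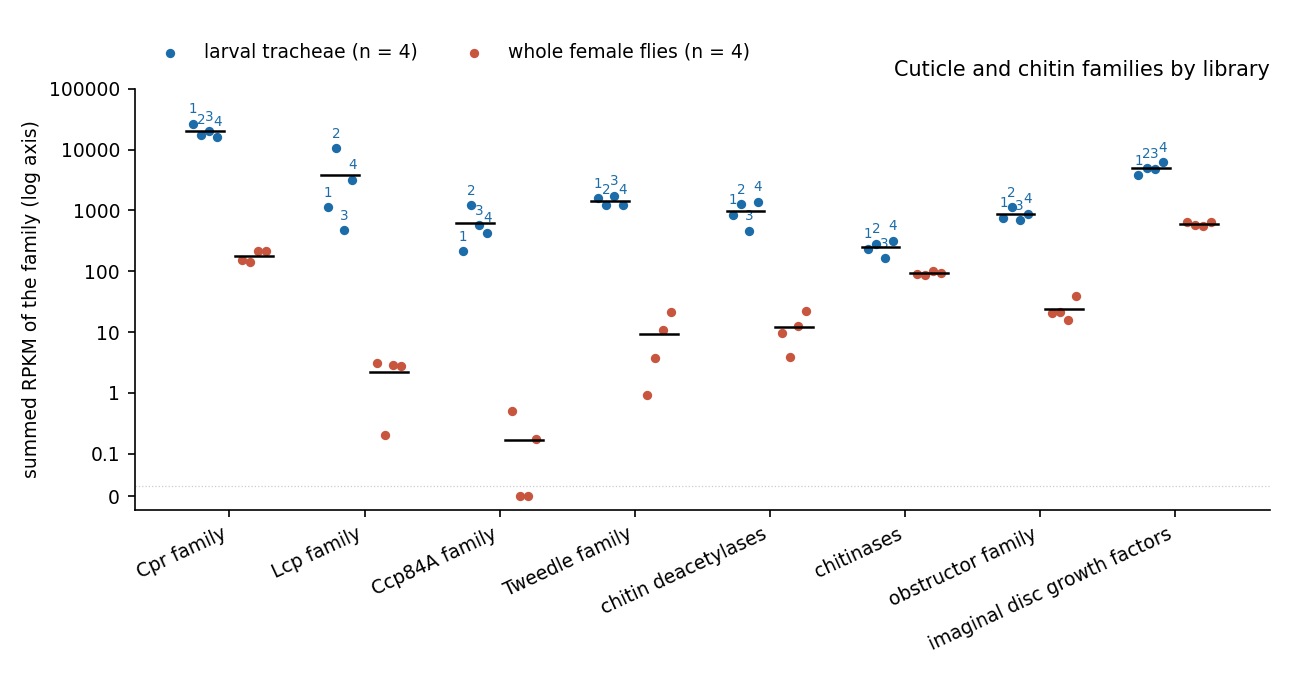
Summed RPKM (log axis) of 8 cuticle and chitin families in each library, larval tracheae in blue with their replicate numbers and whole female flies in red, with 0 drawn below the dotted line and black lines at the means. Larval tracheae were above whole flies in every family, and the Lcp family ran from 471 to 10600 within the larval libraries.

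Luminal matrix and cell junction genes were higher in larval tracheae or not called. Of 10 tested zona pellucida domain proteins, which build apical matrices, 7 were higher and none lower (median log2 fold change 5.44). dpy, a giant protein that spans the tracheal lumen, had 20.2, 21.5, 15.4 and 21.6 RPKM in larval tracheae and 0.00768 to 0.151 RPKM in whole flies (8.33 ± 0.63, adjusted p = 2.87e-06). pio, a partner of dpy in the lumen, had 34.9 to 42.5 RPKM in larval tracheae and 0.534 to 2.40 RPKM in whole flies (5.48 ± 0.44, adjusted p = 4.38e-06). qsm had 75.2 to 118 RPKM in larval tracheae and 1.43 to 10.6 RPKM in whole flies (4.83 ± 0.43, adjusted p = 8.19e-06). Septate junctions, the seals between epithelial cells, had 21 of 22 genes higher and none lower, with a median of 3.11. kune, a claudin, had 180, 171, 210 and 191 RPKM in larval tracheae and 57.9 to 73.9 RPKM in whole flies (2.13 ± 0.19, adjusted p = 9.98e-06). Lac, an immunoglobulin-type adhesion protein, had 94.5 to 149 RPKM in larval tracheae and 15.2 to 30.9 RPKM in whole flies (2.93 ± 0.27, adjusted p = 9.65e-06). bou, a small Ly6-type protein needed for these junctions, had 426 to 645 RPKM in larval tracheae and 56.3 to 102 RPKM in whole flies, but was among the genes not tested in uniquely mapped reads. The groups did not overlap in any of the 21 called junction genes, a trait shared by 2010 of all 2276 genes called higher.

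Polarity and adherens junction genes were higher in 10 of 13 and lower in none (median 1.77), and genes of the actin cytoskeleton and tube shape were higher in 13 of 15 and lower in 1 (median 2.25). With the offset for exon length these medians were 1.51 and 1.92, against 0.56 for all genes. alpha-Cat, which ties cadherin to actin, had 21.6, 20.1, 22.2 and 20.01 RPKM in larval tracheae and 0.280 to 1.68 RPKM in whole flies (4.81 ± 0.49, adjusted p = 1.93e-05). ed, an adhesion protein, had 11.3 to 14.5 RPKM in larval tracheae and 1.32 to 3.78 RPKM in whole flies (3.75 ± 0.37, adjusted p = 1.73e-05). Chd64, of the calponin family, had 326 to 488 RPKM in larval tracheae and 41.5 to 63.1 RPKM in whole flies (3.42 ± 0.24, adjusted p = 2.02e-06). Rho1, a GTPase that steers actin and myosin, had 186 to 233 RPKM in larval tracheae and 36.3 to 72.7 RPKM in whole flies (2.53 ± 0.25, adjusted p = 1.54e-05). Since muscle also uses actin genes, muscle markers were summed. The 13 markers shared by all muscles summed to 790, 272, 141 and 25.4 RPKM in larval tracheae and 809 to 1120 RPKM in whole flies, with 2 members called higher and 2 lower. Without larval replicate 1 the counts were 1 and 5, on the RPKM scale 0 and 5, with the offset 0 and 2, and without larval replicate 2 or 3 or whole fly replicate 1, 2 or 4, 1 member was lower. The 4 markers of larval body wall muscle summed to 1990, 654, 294 and 31.4 RPKM in larval tracheae and 236 to 439 RPKM in whole flies, with none called by edgeR and none at an unadjusted p under 0.05, although 2 were called higher without larval replicate 4 and 2 with the offset for exon length. The part of muscle in the values of the actin genes was not tested.

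On the basal side, integrins and their partners were higher in 10 of 12 and lower in none (median 1.84). mys, the main beta integrin, had 45.0 to 60.5 RPKM in larval tracheae and 6.86 to 11.4 RPKM in whole flies (3.08 ± 0.24, adjusted p = 3.14e-06), and by, a tensin that binds integrins, had 44.3 to 74.5 RPKM in larval tracheae and 5.93 to 8.43 RPKM in whole flies (3.74 ± 0.26, adjusted p = 1.61e-06). Of 13 basement membrane genes 6 were higher and 1 lower, with a median of 0.64 against -0.24 for all genes, but 5 were higher and 5 lower on the RPKM scale, and 3 were lower without larval replicate 3. These genes are long, with a median exon length of 6165 bases. With the offset for exon length 4 were higher and 2 lower, with a median of 0.35 against 0.56 for all genes. trol, which encodes perlecan, stood out with 114, 69.2, 99.5 and 82.0 RPKM in larval tracheae and 1.91 to 2.36 RPKM in whole flies (6.06 ± 0.25, adjusted p = 1.04e-07). LanB1, a laminin chain, had 7.19 to 9.04 RPKM in larval tracheae and 0.370 to 1.95 RPKM in whole flies (3.19 ± 0.48, adjusted p = 3.05e-04). The matrix metalloprotease gene Mmp1 had 39.7, 21.0, 14.2 and 13.5 RPKM in larval tracheae and 0.0209 to 2.77 RPKM in whole flies (4.30 ± 0.88, adjusted p = 0.00215).

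Developmental signalling pathways were mostly higher in larval tracheae. The Notch pathway had 11 of 12 genes higher and none lower (median log2 fold change 3.68), the EGF receptor pathway 7 of 13 and none (1.32), the Dpp pathway 6 of 12 and 1 lower (3.03), the Wingless pathway 8 of 12 and 1 lower (2.36), and the Hedgehog pathway 4 of 6 and none (3.74). The single lower call of the Dpp pathway was lost without larval replicate 1 or 2 or whole fly replicate 2 or 3. That of the Wingless pathway was lost without larval replicate 4 or whole fly replicate 2 or 3. On the RPKM scale 6 genes of the EGF receptor pathway were higher and 1 was lower. The Notch ligand gene Dl had 11.8, 11.5, 15.2 and 15.2 RPKM in larval tracheae and 0.185 to 0.978 RPKM in whole flies (5.17 ± 0.35, adjusted p = 1.38e-06), while the receptor gene N had 12.5 to 18.1 RPKM in larval tracheae and 7.19 to 9.49 RPKM in whole flies (1.61 ± 0.21, adjusted p = 1.03e-04). E(spl)mbeta-HLH, a direct target of Notch, had 83.3 to 129 RPKM in larval tracheae and 4.76 to 14.7 RPKM in whole flies (4.03 ± 0.38, adjusted p = 1.15e-05). No library of 1 group reached the values of the other in any of these 3 genes.

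Egfr had 8.20 to 14.9 RPKM in larval tracheae and 1.25 to 2.85 RPKM in whole flies (2.75 ± 0.32, adjusted p = 5.16e-05). gbb, a BMP ligand, had 69.97, 74.7, 33.6 and 89.2 RPKM in larval tracheae and 3.74 to 11.0 RPKM in whole flies (3.60 ± 0.41, adjusted p = 4.13e-05), and sog, which binds BMP ligands outside the cell, had 13.7 to 22.1 RPKM in larval tracheae and 0.428 to 1.81 RPKM in whole flies (4.73 ± 0.44, adjusted p = 1.19e-05). ci, the transcription factor of Hedgehog signalling, had 16.8, 15.9, 19.6 and 14.9 RPKM in larval tracheae and 0.0984 to 0.358 RPKM in whole flies (7.02 ± 0.42, adjusted p = 6.84e-07). smo, the signal transducer of the pathway, had 7.76 to 10.5 RPKM in larval tracheae and 0.202 to 1.95 RPKM in whole flies (3.59 ± 0.58, adjusted p = 5.04e-04). Of 6 tested Hox genes and cofactors 5 were higher (median 6.24). Antp, the Hox gene of the thorax, had 16.7, 8.85, 26.4 and 11.6 RPKM in larval tracheae and 0 to 0.466 RPKM in whole flies (6.96 ± 0.69, adjusted p = 1.67e-05), and Ubx had 5.17 to 9.87 RPKM in larval tracheae and 0.449 to 1.72 RPKM in whole flies (3.64 ± 0.47, adjusted p = 1.04e-04). Markers of imaginal discs and their myoblasts summed to 28.5, 12.3, 35.3 and 9.28 RPKM in larval tracheae and 0.226 to 2.46 RPKM in whole flies, with 3 of 7 called higher and none lower (5 higher without larval replicate 2 or whole fly replicate 3), and their part in these results was not tested.

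Hormone, clock and oxygen genes gave mixed lists. Of 17 ecdysone response genes 8 were higher and 4 lower (2 lower with the offset), and Cyp18a1, which inactivates ecdysone, had 69.2, 13.3, 30.1 and 12.4 RPKM in larval tracheae and 1.46 to 4.75 RPKM in whole flies (3.98 ± 0.66, adjusted p = 5.68e-04). Jheh3, an epoxide hydrolase that degrades juvenile hormone, had 183 to 435 RPKM in larval tracheae and 48.3 to 67.0 RPKM in whole flies (2.90 ± 0.29, adjusted p = 1.80e-05). Of 9 clock genes 2 were higher and 5 lower (median -2.93). The lower calls numbered 3 without larval replicate 1, whole fly replicate 3 or whole fly replicate 4, and the higher calls 1 without larval replicate 2 or on the RPKM scale and 0 with the offset for exon length. cyc, which pairs with Clock, had 6.54, 2.83, 7.97 and 3.16 RPKM in larval tracheae and 31.02 to 89.5 RPKM in whole flies (-2.93 ± 0.46, adjusted p = 3.99e-04), and the light sensor cry had 0.230, 0, 0 and 0.646 RPKM in larval tracheae and 24.2 to 36.4 RPKM in whole flies (-6.43 ± 0.80, adjusted p = 8.08e-05). Of 5 oxygen-sensing genes 3 were higher and none lower. The globin gene glob1 had 556, 389, 547 and 522 RPKM in larval tracheae and 73.3 to 111 RPKM in whole flies (3.06 ± 0.24, adjusted p = 3.46e-06). sima, the hypoxia-inducible factor alpha of the fly, had 14.2 to 25.3 RPKM in larval tracheae and 0.979 to 3.63 RPKM in whole flies (3.87 ± 0.33, adjusted p = 6.26e-06). AkhR, through which fat cells sense adipokinetic hormone, had a value above 0 in 1 larval library (0.313 RPKM) and 4.57 to 16.2 RPKM in whole flies (-6.70 ± 1.09, adjusted p = 5.25e-04).

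Among transport genes, 3 of 6 innexins, which form gap junctions, were higher in larval tracheae and 1 was lower (2 without larval replicate 4 and on the RPKM scale). Inx3, of epithelia, had 188, 175, 173 and 188 RPKM in larval tracheae and 5.17 to 14.6 RPKM in whole flies (4.83 ± 0.29, adjusted p = 7.98e-07), and Inx2 had 55.8 to 109 RPKM in larval tracheae and 12.8 to 22.2 RPKM in whole flies (2.82 ± 0.28, adjusted p = 1.60e-05). zpg, the innexin of the germline, had 2 reads in larval tracheae and 90.4 to 120 RPKM in whole flies, 1510-fold lower in larval tracheae over the pooled reads (95% counting interval 418 to 12500). The vacuolar proton pump had 14 of 22 subunits higher and 5 lower (median 0.95), or 9 higher on the RPKM scale, and Vha16-1, its membrane ring subunit, had 942 to 1574 RPKM in larval tracheae and 416 to 542 RPKM in whole flies (1.88 ± 0.21, adjusted p = 3.27e-05). Of 7 genes of trehalose and sugar transport, none was higher and 5 were lower in larval tracheae (median -5.63, or -2.66 with 2 members at their bound). Tps1, which makes trehalose, the main sugar of insect blood, had 0.0477 to 0.252 RPKM in larval tracheae and 147 to 207 RPKM in whole flies (-9.17 ± 0.40, adjusted p = 1.62e-07). Tret1-1, which carries trehalose across membranes, had 0 to 1.16 RPKM in larval tracheae and 26.03 to 40.99 RPKM in whole flies (-5.93 ± 0.83, adjusted p = 1.87e-04). The aquaporin gene Prip had 14.8, 15.7, 12.3 and 3.35 RPKM in larval tracheae and 103 to 161 RPKM in whole flies (-2.90 ± 0.40, adjusted p = 1.56e-04).

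In the TMM fit, Toll receptors and Toll pathway genes were higher in larval tracheae or not called. Peptidoglycan recognition proteins and Imd pathway genes were divided. Of 5 tested Toll receptors 4 were higher, and of 12 genes of the Toll pathway 7 were higher and none lower, or 5 higher and 2 lower on the RPKM scale. Tl had 10.2 to 15.6 RPKM in larval tracheae and 2.16 to 6.67 RPKM in whole flies (2.41 ± 0.34, adjusted p = 1.79e-04), and Toll-7 had 2.14 to 6.92 RPKM in larval tracheae and 0 to 0.174 RPKM in whole flies (6.51 ± 0.88, adjusted p = 1.41e-04). grass, a clip protease upstream of Toll, had 119, 169, 243 and 176 RPKM in larval tracheae and 2.12 to 9.81 RPKM in whole flies (5.63 ± 0.53, adjusted p = 1.19e-05). Of 12 peptidoglycan recognition proteins 4 were higher and 5 lower, or 2 lower in uniquely mapped reads. Of 12 tested Imd pathway genes 3 were higher, a share near the 22.9% of all genes, and 1 was lower. On the RPKM scale 2 were higher and 3 lower, and with the offset for exon length 7 and 1. Of the fits without 1 library, only those without larval replicate 3 or whole fly replicate 4 kept a lower call. PGRP-LC, the receptor of the Imd pathway, had 31.9 to 52.8 RPKM in larval tracheae and 4.92 to 6.25 RPKM in whole flies (3.47 ± 0.24, adjusted p = 1.49e-06), PGRP-LA had 46.5 to 102 RPKM in larval tracheae and 2.41 to 10.6 RPKM in whole flies (4.22 ± 0.58, adjusted p = 1.50e-04), and PGRP-SA, which senses bacteria for Toll, had 41.6 to 121 RPKM in larval tracheae and 11.8 to 17.1 RPKM in whole flies (3.04 ± 0.34, adjusted p = 3.43e-05). PGRP-SC2, an amidase that degrades peptidoglycan, had no read in larval tracheae and 223 to 475 RPKM in whole flies, that is, at least 1420-fold lower in larval tracheae.

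Effector peptides were low in larval tracheae. Antimicrobial peptide genes took 0.00134 to 0.00216% of gene reads in larval tracheae, against 0.0525 to 0.0842% in whole flies (exact permutation p = 0.0286, 0.0317 adjusted). Of 11 tested members 5 were lower and 1 higher, or 3 lower and 1 higher with the offset for exon length. The offset put their median at 0.12 instead of -2.24, but also moved that of all genes from -0.24 to 0.56. Their median thus stayed below that of all genes in both fits. The higher call was lost without larval replicate 2, larval replicate 4 or whole fly replicate 4. Drs, the main antifungal peptide, had 0.376, 0.360, 12.4 and 5.69 RPKM in larval tracheae and 1129 to 1797 RPKM in whole flies (-7.67 ± 0.82, adjusted p = 2.90e-05). Def had 15.0, 1.40, 2.00 and 0.920 RPKM in larval tracheae and 74.3 to 174 RPKM in whole flies, a call that was lost with the offset for exon length (adjusted p = 0.152). All 7 bomanins and related immune-induced peptides were lower, as with IM2, which had no read in larval tracheae and 52.6 to 105 RPKM in whole flies, that is, at least 186-fold lower in larval tracheae. The stress peptide gene TotC had no read in larval tracheae and 21.3 to 49.6 RPKM in whole flies, that is, at least 129-fold lower in larval tracheae. Of 16 serpins 6 were higher and 3 lower (1 lower without whole fly replicate 1, and 10 higher and 1 lower with the offset), and the most abundant, Spn88Ea, had 735, 1257, 740 and 1665 RPKM in larval tracheae and 83.7 to 111 RPKM in whole flies (4.05 ± 0.30, adjusted p = 2.80e-06).

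Stress and detoxification families were divided. Of 70 tested cytochrome P450 genes 20 were higher and 23 lower, shares near those of all genes, and 17 higher and 34 lower on the RPKM scale. Cyp28a5 had 144 to 302 RPKM in larval tracheae and 5.44 to 11.9 RPKM in whole flies (5.0 ± 0.37, adjusted p = 2.45e-06), whereas Cyp4g1, which makes cuticular hydrocarbons in oenocytes, had 0.0537 to 1.31 RPKM in larval tracheae and 644 to 994 RPKM in whole flies (-10.18 ± 0.68, adjusted p = 1.38e-06). Of 33 glutathione transferases 3 were higher and 12 lower in the TMM fit, but 13 were higher and 6 lower with the offset for exon length and none was higher and 17 lower on the RPKM scale, and 1 was higher without larval replicate 3. For comparison, the offset fit called 3407 of all 9944 genes higher and 1467 lower. GstE9 had 1.66, 21.9, 0.506 and 7.77 RPKM in larval tracheae and 382 to 485 RPKM in whole flies (-5.17 ± 0.82, adjusted p = 4.34e-04). The catalase gene Cat, whose product removes hydrogen peroxide, had 551 to 1360 RPKM in larval tracheae and 270 to 332 RPKM in whole flies (2.06 ± 0.28, adjusted p = 1.66e-04), and Gclm, of glutathione synthesis, had 32.9 to 42.5 RPKM in larval tracheae and 382 to 527 RPKM in whole flies (-3.06 ± 0.20, adjusted p = 1.16e-06). The small heat shock gene Hsp26 had 38.1, 56.7, 231 and 112 RPKM in larval tracheae and 2180 to 4145 RPKM in whole flies (-4.28 ± 0.53, adjusted p = 8.25e-05).

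Large families of short housekeeping genes were lower in the TMM fit and depended on the scale. Nuclear genes of oxidative phosphorylation had 1 member higher and 55 of 69 lower (median -1.06), but 30 higher and 3 lower with the offset for exon length, where the median of 0.52 lay next to the 0.56 of all genes. Their share of gene reads was 0.921, 1.14, 1.09 and 1.10% in larval tracheae, against 2.64 to 2.86% in whole flies (exact permutation p = 0.0286, 0.0317 adjusted). COX5A had 284 to 389 RPKM in larval tracheae and 1362 to 1543 RPKM in whole flies (-1.57 ± 0.18, adjusted p = 4.31e-05), and 0.14 with the offset (adjusted p = 0.536). Mitochondrial ribosomal proteins had none higher and 59 of 73 lower, but 17 higher and none lower with the offset, and mRpS18A, at 44.4 to 65.9 RPKM in larval tracheae and 321 to 411 RPKM in whole flies, moved to -0.18 with it (adjusted p = 0.440). Proteasome genes had 1 higher and 20 of 33 lower, and 14 higher and none lower with the offset, and 13 were lower without whole fly replicate 2. Over all 9944 genes the offset fit called 3407 higher and 1467 lower. Its medians of 0.45 for mitochondrial ribosomal proteins and 0.64 for the proteasome also lay near the 0.56 of all genes. The counts with the offset are thus no reversal relative to all genes.

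Cytosolic ribosomal proteins had 5 of 83 members higher and 7 lower in the TMM fit, 78 higher and 1 lower with the offset for exon length, and 1 higher and 46 lower on the RPKM scale. Without 1 library 2 to 12 members were lower, with 12 without larval replicate 3, 3 without whole fly replicate 1 or 4, and 2 without larval replicate 1 or 4 or whole fly replicate 2 or 3. They took 11.3, 15.8, 16.4 and 12.8% of gene reads in larval tracheae, against 21.5 to 22.3% in whole flies (exact permutation p = 0.0286, 0.0317 adjusted). After the 20 highest genes of each library were left out, the difference of the shares was 0.719 percentage points in the other direction (exact permutation p = 0.571). RpL41 had 1949 to 3646 RPKM in larval tracheae and 6097 to 7797 RPKM in whole flies (-0.87 ± 0.22, adjusted p = 0.00811), and 1.44 with the offset. No direction can be given for this family from these values.

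In the lists of fat storage and cell division genes, lower calls outnumbered higher ones in the TMM fit, with the offset and on the RPKM scale. None of 15 genes of fat storage and mobilization was higher and 10 were lower (median -1.83), with 1 higher without whole fly replicate 4. The lipid droplet protein gene Lsd-2 had 15.7 to 27.1 RPKM in larval tracheae and 86.5 to 114 RPKM in whole flies (-1.87 ± 0.23, adjusted p = 6.51e-05), and CG1942, a diacylglycerol acyltransferase gene, had no read in larval tracheae and 16.1 to 46.2 RPKM in whole flies, that is, at least 306-fold lower in larval tracheae. Of 28 cell cycle genes 2 were higher and 20 lower, and 2 and 11 with the offset. The higher calls numbered 1 without larval replicate 1 or 3 or whole fly replicate 2 or 3, and 12 genes were lower in the fit of all 12 libraries. CycB, a cyclin of mitosis that is stored in eggs, had 4.97, 5.26, 9.55 and 2.85 RPKM in larval tracheae and 206 to 304 RPKM in whole flies (-4.90 ± 0.37, adjusted p = 3.12e-06). PCNA, the clamp of DNA polymerase, had 55.8 to 132 RPKM in larval tracheae and 375 to 494 RPKM in whole flies (-1.76 ± 0.27, adjusted p = 3.09e-04), a call lost with the offset (-0.20, adjusted p = 0.541). Of 13 glycolysis genes 7 were lower and none higher in the TMM fit, and 3 lower and 3 higher with the offset. Without larval replicate 4, 1 was higher. Their median was -0.86 in the TMM fit, against -0.24 for all genes. It was -0.15 against 0.56 with the offset and -1.49 against -0.87 on the RPKM scale, so it lay below that of all genes on each. Pglym78 had 84.2 to 155 RPKM in larval tracheae and 501 to 606 RPKM in whole flies (-1.49 ± 0.22, adjusted p = 2.88e-04, and 0.00 with the offset).

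**Figure D4:**
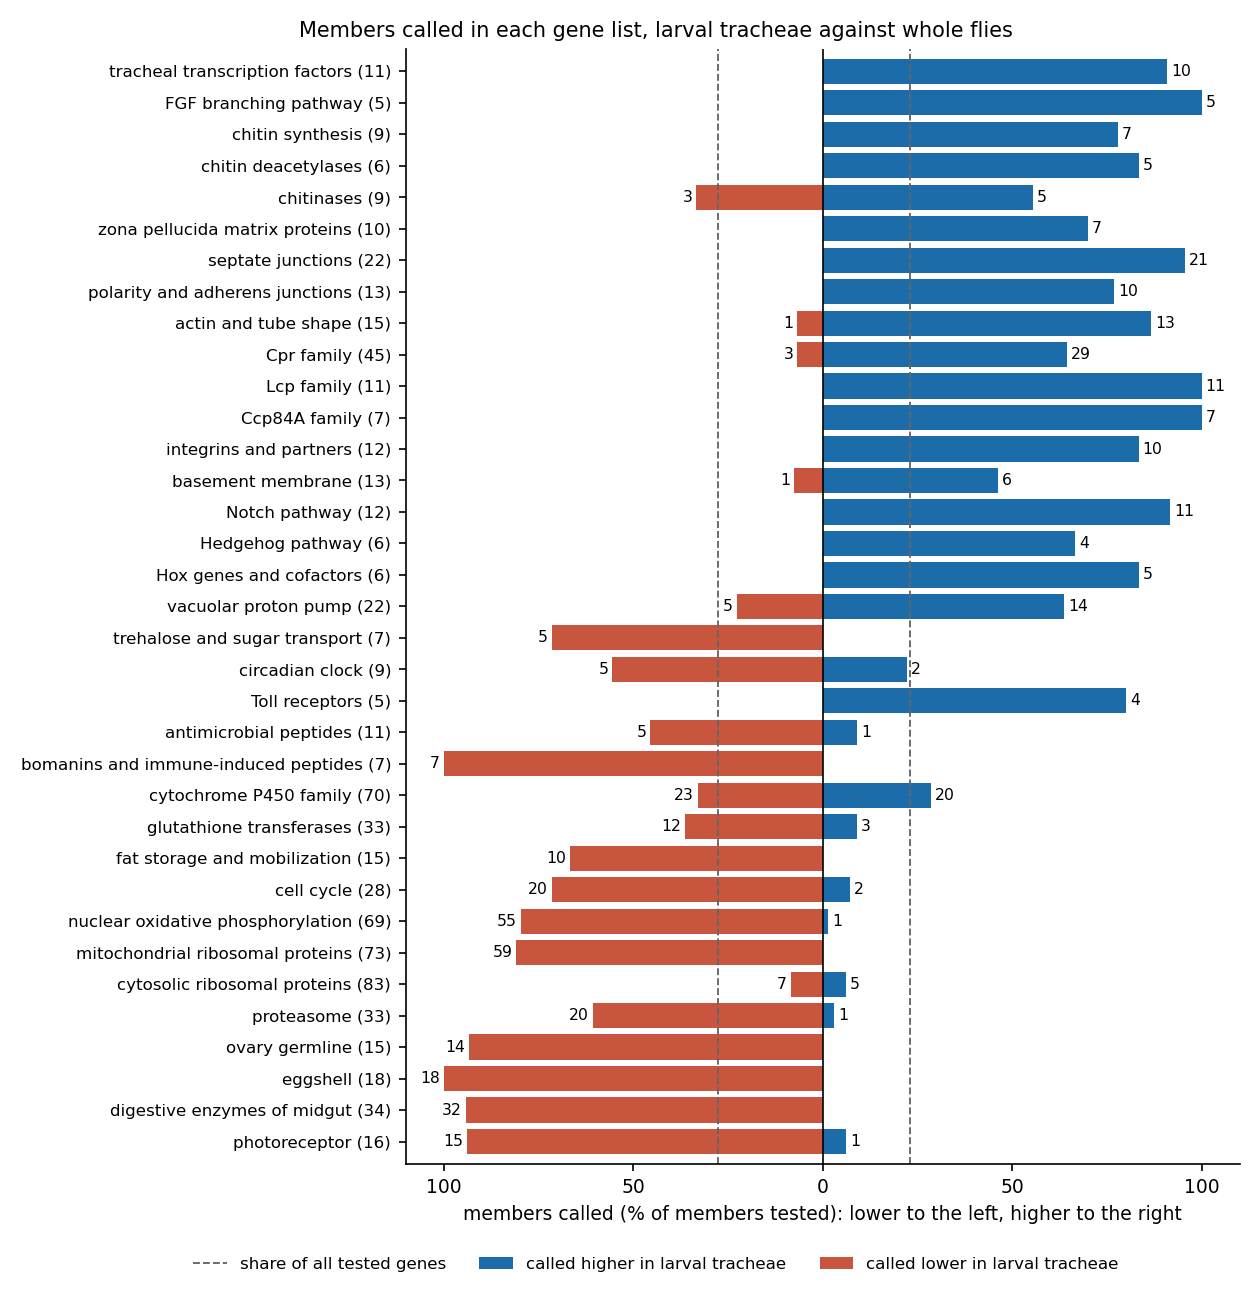
Share of the tested members of 35 gene lists that were called higher (blue, to the right) or lower (red, to the left) in larval tracheae than in whole flies, in percent of the members tested, with the number of members tested beside each name and the number called at each bar. Dashed lines mark the shares over all tested genes, 22.9% higher and 27.5% lower. Junction, chitin synthesis, chitin deacetylase, Cpr, Lcp and Ccp84A lists extend mainly to the right, chitinases to both sides, and eggshell, ovary and midgut lists to the left. The lists drawn are part of 81. Those left out include the Tweedle (2 higher and 2 lower of 5), Osiris (1 and 3 of 9) and tanning (6 and 3 of 16) lists.

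Most of the genes furthest below whole flies are known from ovary or gut. The 10 largest decreases by fitted value were Cp16, Vm26Aa, gnu, Jon99Cii, RpS5b, Cp19, CG5506, PGRP-SC2, CG7443 and Cp18. Cp16 had no read in larval tracheae and 204, 324, 1087 and 2522 RPKM in whole flies, and Cp18 had no read in larval tracheae and 9.42, 8.27, 289 and 1144 RPKM in whole flies, that is, at least 2950-fold and 1200-fold lower in larval tracheae. Cp19 had 0.671, 0, 0.306 and 0.376 RPKM in larval tracheae and 1873, 3224, 5457 and 17180 RPKM in whole flies. With Cp15 these chorion genes lie side by side on arm 3L from 8726791 to 8732599, and whole fly replicate 4 was the highest for Cp16, Cp18 and Cp19 but not for Cp15. Vm26Aa, of the vitelline membrane, had no read in larval tracheae and 294 to 980 RPKM in whole flies, that is, at least 3180-fold lower in larval tracheae. gnu, which acts in the egg at the start of embryogenesis, had no read in larval tracheae and 330 to 448 RPKM in whole flies, that is, at least 2200-fold lower in larval tracheae.

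RpS5b, a ribosomal protein of the germline, had 1 read in larval tracheae and 806 to 1497 RPKM in whole flies. The digestive protease gene Jon99Cii, which has a near-identical neighbour, had no read in larval tracheae and 297 to 594 RPKM in whole flies, that is, at least 2040-fold lower in larval tracheae. CG5506 and CG7443, with no read in larval tracheae, were at least 1520-fold and 1490-fold lower there than in whole flies. All 18 eggshell genes were lower (median -12.08, or -10.07 with 9 members at their bound), as were all 3 yolk proteins, 14 of 15 ovary germline markers, 32 of 34 digestive enzymes of the midgut and 15 of 16 photoreceptor markers. Yp3, a yolk protein, had 1.77 to 4.27 RPKM in larval tracheae and 8714 to 9366 RPKM in whole flies (-11.12 ± 0.38, adjusted p = 5.65e-08). alphaTry, a trypsin that has near-identical neighbours, had 8.30, 1.94, 13.9 and 1.28 RPKM in larval tracheae and 23370 to 28280 RPKM in whole flies (-11.43 ± 0.84, adjusted p = 2.60e-06). exu, which localizes RNA in the oocyte, had 0 to 0.182 RPKM in larval tracheae and 221 to 400 RPKM in whole flies, and Arr2, the arrestin of photoreceptors, had 0 to 2.52 RPKM in larval tracheae and 357 to 398 RPKM in whole flies.

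Counted as shares of gene reads, eggshell genes took 0.000159 to 0.00203% in larval tracheae, against 1.09 to 2.45% in whole flies, and yolk proteins 0.000743 to 0.00157% in larval tracheae, against 2.42 to 2.99% in whole flies. Digestive enzymes took 0.00202 to 0.0141% in larval tracheae, against 4.37 to 4.90% in whole flies, and photoreceptor genes 0.00609 to 0.00978% in larval tracheae, against 0.190 to 0.218% in whole flies. Each of these 4 differences reached the smallest possible exact permutation p of 0.0286 (0.0317 adjusted), although for yolk proteins it did not when the 20 highest genes of each library, which hold yolk genes in whole flies, were left out (p = 0.143). The classes were chosen with earlier results of these data known, so these p-values are no independent support. Muscle genes took 0.549, 0.187, 0.0966 and 0.0152% in larval tracheae, against 0.358 to 0.502% in whole flies, and did not pass the test (exact permutation p = 0.143, and 0.143 adjusted).

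**Figure D5:**
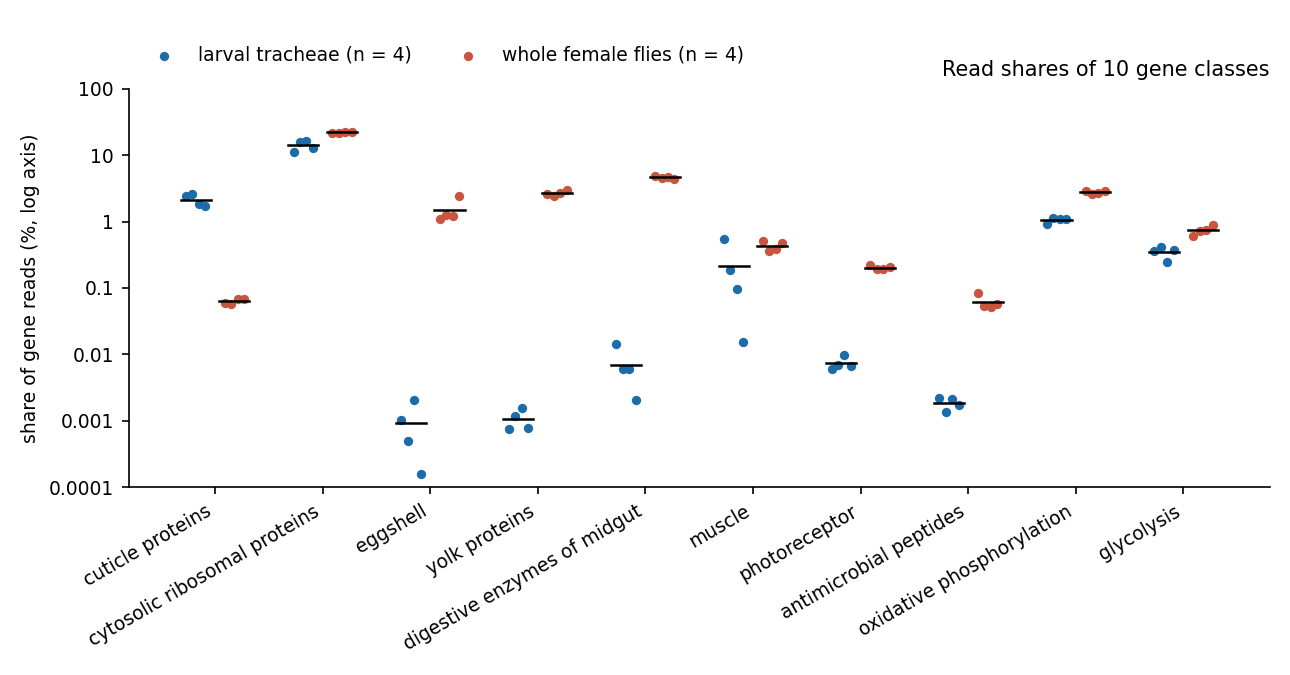
Share of gene reads (percent, log axis) of 10 gene classes in each library, larval tracheae in blue and whole female flies in red, with black lines at the means. The class drawn as cuticle proteins, which includes the Osiris family, was above whole flies in every larval library. Muscle genes overlapped, and the other 8 classes were below.

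Markers of other larval cells were checked in the same way. Of 12 haemocyte markers 6 were higher and 2 lower (0 lower without larval replicate 1, and 1 without any other library), and the list summed to 46.4, 62.6, 78.6 and 95.8 RPKM in larval tracheae and 34 to 41.5 RPKM in whole flies. PPO2, a prophenoloxidase of crystal cells, had 12.2 to 27.4 RPKM in larval tracheae and 4.55 to 8.52 RPKM in whole flies (2.40 ± 0.34, adjusted p = 1.93e-04). Of 10 tested fat body markers 2 were higher and 5 lower (median -1.62), and the list summed to 134, 105, 89.3 and 331 RPKM in larval tracheae and 254 to 316 RPKM in whole flies, with larval replicate 4 above the whole flies and the other larval libraries below them. The higher calls numbered 1 without larval replicate 3 or whole fly replicate 2, 3 or 4, and the lower calls 3 without whole fly replicate 2. The 4 larval serum proteins of fat body, a list of their own with 3 members higher and none lower (1 lower without larval replicate 3 and on the RPKM scale), summed to 24.0, 29.5, 191 and 32.1 RPKM in larval tracheae and 6.73 to 19.0 RPKM in whole flies, and Lsp1gamma had 12.7, 16.1, 98.2 and 13.1 RPKM in larval tracheae and 0.0405 to 1.32 RPKM in whole flies (6.39 ± 1.05, adjusted p = 5.48e-04), with larval replicate 3 the highest. Of 5 glia markers 1 was higher and 2 were lower. Gs2, a glutamine synthetase, had 1174, 2516, 481 and 3450 RPKM in larval tracheae and 52.8 to 107 RPKM in whole flies (4.99 ± 0.58, adjusted p = 4.88e-05), while the glutamate transporter gene Eaat1 had 0.273 RPKM or less in larval tracheae and 21.2 to 23.2 RPKM in whole flies (-6.93 ± 0.91, adjusted p = 1.12e-04). Of 15 tested neuron markers 3 were higher, 1 was lower (2 lower without larval replicate 2 or 4 and on the RPKM scale) and 11 were not called. Their median was -0.45, against -0.24 for all genes, of which 22.9% were higher. Of the 18 markers listed, 2 reached a mean of 1 RPKM in larval tracheae. Syx1A, a membrane fusion protein and 1 of the higher markers, had 19.6 to 26.7 RPKM in larval tracheae and 1.24 to 3.38 RPKM in whole flies (4.02 ± 0.39, adjusted p = 1.61e-05). The muscle protein gene Mf had 23.8, 7.995, 4.25 and 0.832 RPKM in larval tracheae and 356 to 507 RPKM in whole flies, and the odorant binding protein gene Obp99c had 0.208 to 26.2 RPKM in larval tracheae and 974 to 1195 RPKM in whole flies. Salivary gland glue genes summed to at most 2.72 RPKM in larval tracheae and 0 RPKM in whole flies, and no member passed the filter.

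By chromosome, the genes of chromosome 4 stood apart. Of 72 tested genes there 48 (66.7%) were higher and 4 (5.56%) lower in larval tracheae, with a median log2 fold change of 2.45. On the other arms the medians ran from -0.34 on X to -0.10 on 3L, and 20.8 to 25.8% of genes were higher. Within classes of exon length, the 29 genes of chromosome 4 with more than 5000 bases had a median of 3.22 against 1.18 for 1333 genes elsewhere, the 18 genes of 3000 to 5000 bases 2.36 against 0.49, the 12 genes of 1500 to 3000 bases 2.37 against -0.37, and the 9 genes of up to 1500 bases -0.01 against -0.94, with 4 of the 9 higher and 3 lower. With the offset for exon length the median of chromosome 4 was 2.45, with 49 genes higher and 1 lower. The offset raised the median of all tested genes from -0.24 to 0.56, so the gap to chromosome 4 narrowed. ci, described above, is among these genes. Genes are not independent replicates, so no test was made of this pattern, and larvae were of mixed sex while the flies were female.

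Against dissected adult tracheae, 925 of 10239 tested genes were higher (9.03%) and 1862 lower (18.2%) in larval tracheae, 27.2% in all, in a fit that shares the larval libraries. Adult tracheae against whole flies, in a fit that shares the fly libraries, had 1714 of 10234 genes higher (16.7%) and 824 lower (8.05%), 24.8% in all. Against adult tracheae, septate junctions had 18 genes higher in larval tracheae and none lower, and the Cpr family 24 higher and 5 lower. btl, at 45.9 RPKM on average in larval tracheae, had 2.35 to 6.59 RPKM in adult tracheae (3.28 ± 0.48, adjusted p = 8.51e-04). The difference between the 2 kinds of tracheae did not pass the test for trh (1.03 ± 0.47, adjusted p = 0.134), glob1 (0.24 ± 0.29, adjusted p = 0.6), Gs2 (0.65 ± 0.59, adjusted p = 0.473) or PGRP-SA (0.11 ± 0.53, adjusted p = 0.915). reb was higher in larval tracheae by 7.55 ± 1.2 (adjusted p = 0.00132), serp by 5.62 ± 0.68 (adjusted p = 2.92e-04) and obst-A by 7.38 ± 0.73 (adjusted p = 1.15e-04). The genes most abundant in larval tracheae took 1.19 to 1.95% of gene reads in adult tracheae, for the same 10 genes as above.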

How the data were processed

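Reads were mapped by the authors to BDGP6 and counted per gene in the CLC Genomics Workbench, whose version and settings are not given in the sources used here, and whether strand was used is not stated. The deposited files hold read counts per gene (unique and total gene, exon and intron reads), as whole numbers that were not normalized. The deposited RPKM were made by the authors from total exon reads, exon length and total gene reads. Total gene reads of the 8 libraries were tested with edgeR 4.0.16 (R 4.3.3), using TMM scaling and the quasi-likelihood F-test with Benjamini-Hochberg adjustment on genes that reached 10 reads in 2 libraries or more. Calls needed an adjusted p below 0.05 together with more than a 1.5-fold difference. edgeR gives no SE in this test, so each SE was derived from it. It is the absolute log2 fold change divided by the square root of F. The study's own software used a Wald test on a negative binomial model, so DESeq2 1.42.0 was run as an alternative. Adult tracheae were compared with larval tracheae and with whole flies in fits of their own, which share libraries with the main comparison. limma 3.58.1 was run on log2(RPKM + 0.1) for genes of at least 0.5 RPKM in 2 libraries, and fold changes on that scale understate low genes.

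Gene lists (61 gene groups and 20 marker lists, with 1517 of 1523 entries in the files) and genes were chosen with earlier results of these data known. Fold changes of lists are described by counts and medians with no test, and only the shares of reads of 10 gene classes were tested. The named genes were the 10 largest increases and decreases with no overlap in CPM and a mean of at least 10 RPKM in the higher group, the 10 most abundant called genes in larval tracheae, for each list described up to 4 called members of highest mean RPKM with up to 2 defining members, and label checks, of which the text gives 141. Bounds for genes with 0 reads in a group use 3 reads in that group as a floor, and ratios with 1 to 3 reads carry an exact 95% counting interval. Shares of reads were compared with an exact permutation test over 70 splits. Alternatives were RLE scaling, no filter, uniquely mapped reads, exon reads, all 12 libraries in one fit, a replicate block, other RPKM settings, an exon length offset and the omission of each library in turn. The scripts were tested on simulated counts. Replicate numbers did not pair the libraries, with correlations of same-numbered deviations from -0.019 to 0.0102. Promoter sequences were not used here.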

Additional observations from a re-analysis of the deposited data

Results flagged for a closer look

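In 23 of 268 groups of 4 libraries examined, 1 library lay far from the other 3 by Dixon's test at the 95% level, which chance gives in about 1 group in 20. Whole fly replicate 1 was the high library of its group for Nplp4 (190.2 RPKM), CG15353 (108.0), CG13044 (37.71), Cpr47Ec (8.217), Cpr47Eb (1.361), Lcp4 (1.17), kkv (0.6499), Hn (49.05) and Drs (1797 RPKM), and for the antimicrobial peptides' share of reads (0.0842%). Among the other whole flies, replicate 2 was low for Egfr (1.253 RPKM), replicate 3 was high for Jon99Cii (594.2) and COX5A (1543) and low for Cyp28a5 (5.44), and replicate 4 was high for Pglym78 (606.0 RPKM) and for the share of eggshell genes (2.45%). In larval tracheae, replicate 1 was high for Def (14.96 RPKM), replicate 2 for ninaE (1.842), replicate 3 for AkhR (0.3131) and Lsp1gamma (98.25) but low for CG15353 (105000), and replicate 4 high for reb (83.87) and Eaat1 (0.273 RPKM). The calls of these genes were kept in every fit without 1 library. The causes were not tested.

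For 15 named genes the larval and the adult tracheae were called in opposite directions against whole flies, and the fit of larval against adult tracheae gave the difference itself. It was -10.63 for Act88F, -5.42 for Hn, -7.70 for cry, -8.61 for AkhR, -10.77 for Tps1, -7.76 for Tret1-1 and -10.06 for Drs on the log2 scale. It was -11.68 for Cyp4g1, -6.18 for GstE9, -13.15 for Yp3, -9.83 for Arr2, -9.25 for Eaat1 and -8.06 for Obp99c. IM2, with no read in larval tracheae, had a fitted -14.62, which is no bound. Jheh3 went the other way, at 4.29. All 15 were called in that fit by edgeR. Among all genes, 300 were lower in larval and higher in adult tracheae than in flies and 13 the reverse, and every one was called there too. Opposite calls against the same flies largely set that outcome, so it adds no support.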

How the results depend on the processing

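Among 140 called genes named in the text, every call was kept in each fit without 1 library, and 129 were kept in every alternative. These genes were picked largely for big differences or high abundance, so their calls are steadier than those of all genes. Of all 5011 calls, 4177 to 4491 were kept without 1 library. With the offset for exon length 3361 kept their direction and 139 were called in the opposite one. Without 1 library, 2016 to 2306 genes were higher and 2158 to 2579 lower. With a replicate block 1942 genes were higher and 2337 lower and no named call changed, although the numbers did not pair the libraries, and the higher calls numbered 7 of 11 Lcp genes and 7 of 12 Notch pathway genes. limma on RPKM called 4104 genes lower with a pseudocount of 0.1 and 4208 with 1, against 1467 lower with the offset for exon length. The offset turned RpL41 to 1.44, ended the calls of Def (-1.55), COX5A (0.14), mRpS18A (-0.18), Pglym78 (0.00) and PCNA (-0.20), and DESeq2 gave no adjusted p for Lsp1gamma (6.44). With the offset, which called 3407 of all 9944 genes higher and 1467 lower, members higher and lower numbered 12 and 1 of the Rab GTPases, 6 and 1 of redox defence, 13 and 6 of glutathione transferases, 30 and 3 of oxidative phosphorylation, 17 and 0 of mitochondrial ribosomal proteins, and 14 and 0 of the proteasome. On the RPKM scale they numbered 1 and 3 of ER translocation genes (1 and 5 with a pseudocount of 1), 2 and 4 of juvenile hormone genes with a pseudocount of 1, and 1 and 3 of dosage compensation genes. Without 1 library, 1 to 7 Rab GTPases were higher and 2 to 4 lower, with 7 higher without whole fly replicate 1. Without the 20 highest genes of each library, the difference in share was 0.719 points for ribosomal proteins (p = 0.571, exact permutation) and -0.239 for yolk proteins (p = 0.143, exact permutation). Medians by chromosome for genes of at least 1 RPKM were -0.32 on 2L, -0.33 on 2R, -0.16 on 3L, -0.36 on 3R, 2.73 on 4 and -0.46 on X, and with the offset, an alternative chosen after seeing the data, 0.55, 0.63, 0.66, 0.53, 2.45 and 0.30. For adult tracheae against whole flies, 1552 genes were called with a replicate block, and 1329 (without whole fly replicate 2) to 3493 (without adult trachea replicate 4) without 1 library, against 2538 with all. The causes were not tested. Depth limits the rare genes, since 3 reads were 0.304 to 0.598 CPM.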
